A study of Danio rerio with 8 samples.

Results

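Collagen genes encode the chains of the collagen superfamily, and 57 of the 32520 genes in the counts table were collected here by name: every gene whose symbol began with col, a type number, the letter a and a chain number, whatever the case of the letters. The rule used no measured value. By type, 15 encoded fibrillar chains (types 1, 2, 5, 11, 24 and 27), 9 encoded basement membrane chains (type 4 and the basement membrane zone types 15 and 18), 5 encoded the beaded filament type 6, and 28 belonged to other types. RNA was measured by bulk sequencing in ventricles of adult zebrafish, each library being a pool of 4 sibling fish. All mothers were uninjured. The fathers of 4 pools were uninjured (Pu-Fu, numbered 1, 3, 4 and 5 in the labels), and the fathers of the other 4 had their hearts cryoinjured (wounded by local freezing) and were crossed at 7 days post injury (Pi-Fu, numbered 1, 2, 4 and 7). The offspring themselves were not injured, and the labels name no strain, transgene or age beyond adult. Atrium and bulbus arteriosus, the elastic outflow chamber of the fish heart, had been dissected away, and the ventricle was cut open so that red blood cells could leave. Whether pools within a group came from different fathers is not stated in the labels used here, and every p below therefore measures the spread between pools.

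A collagen molecule is a triple helix of chains that are hydroxylated and folded in the endoplasmic reticulum, secreted as procollagen, trimmed by proteases and crosslinked. Fibrillar collagens form the load-bearing fibres between heart muscle bundles, type 4 forms the sheet beneath endothelium and around each cardiomyocyte, and type 6 forms beaded filaments that tie cells to the surrounding matrix. In the adult heart, fibroblasts and epicardium-derived cells make most fibrillar collagen, while endothelial and mural cells contribute much of type 4; after cryoinjury zebrafish lay down a collagen scar that is later resolved. The comparison asks whether a father's injury goes along with a different collagen programme in the untouched hearts of his offspring.

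No collagen gene differed between offspring of injured and uninjured fathers past the adjusted threshold. Collagen RNA was a small fraction of the ventricle's RNA, carried mainly by types 1, 5 and 6, and its variation lay between single libraries of both groups. The libraries held between 8441014 and 16290169 counts, with a count in 18398 to 19179 genes. Of the 57 collagen genes, 23 had enough counts to be tested, and these 23 held 99.6% of all collagen counts. Ventricular muscle markers summed to between 96355 and 134039 CPM (counts of a gene over the scaled library total, times 1e6). The 10 matched fibroblast and epicardial markers were all detected, at a sum of 301 to 337 CPM with uninjured fathers and 269 to 321 CPM with injured fathers. Marker RNA of the bulbus arteriosus was at 20.5 to 27.1 CPM and 22.4 to 25.1 CPM. That of cartilage and bone was at 2.26 to 5.48 CPM and 2.2 to 2.78 CPM, with the bone marker bglap at 0. The 3 matched genes of the atrial list summed to more, at 1338 to 1953 CPM and 1308 to 1849 CPM. Most of this sum was nppa, at 1184 to 1680 CPM, while myh6 was at 48.3 to 270 CPM over all 8 libraries. Whether the genes of the ventricular and atrial lists are particular to a single chamber was not tested. Skeletal muscle marker RNA was at 349 to 857 CPM and 273 to 753 CPM. The source of this RNA was not tested.

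Collagen counts made up 0.0937% ± 0.0164 (SD, n = 4) of all counts with uninjured fathers and 0.0879% ± 0.0151 (SD, n = 4) with injured fathers. The libraries with uninjured fathers numbered 1, 3, 4 and 5 had collagen shares of 0.0913%, 0.104%, 0.108% and 0.0714%. Those with injured fathers numbered 1, 2, 4 and 7 had 0.103%, 0.0981%, 0.0734% and 0.0765%. The groups overlapped almost entirely: uninjured 4 was the highest and uninjured 5 the lowest of all 8. Fibrillar chains took 44.9% of the collagen counts, beaded filament chains 36.5%, basement membrane chains 11.8% and the other types 6.67%. Per length of gene the order was the same, with 46.1%, 33.1%, 14.3% and 6.50% of the summed RPKM (CPM per kilobase of annotated exon length).

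**Figure D1:**
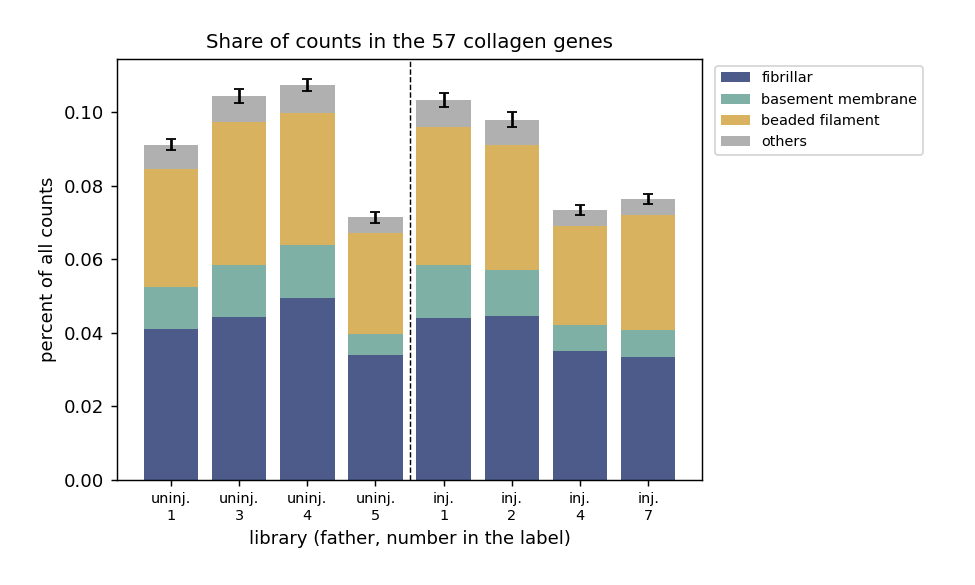
Percent of all counts in the 57 collagen genes (y axis) in each of the 8 libraries (x axis), stacked by class, with 95% Wilson intervals of the sum that cover counting error only. Uninjured 5 (0.0714%), injured 4 (0.0734%) and injured 7 (0.0765%) are the lowest bars, so low bars stand in both groups.

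Each level below is an RPKM, because CPM also grows with the length of a gene, and the mean ± SD given first is over all 8 libraries. The RNA was amplified before sequencing. Differences between genes in amplification are not removed by dividing by length, and their part in the order of levels was not tested. The most abundant collagen gene was COL5A2, at 27.5 ± 5.74, above 90.0% of the tested genes, though within its SD of the gene below it. COL6A2 at 23.2 ± 2.29, col6a1 at 20.6 ± 2.36 and COL1A1 at 20.1 ± 3.11 came next and lay within an SD or so of each other. COL1A2 stood apart below them at 13.2 ± 1.96. COL4A2 at 8.32 ± 2.98, col18a1b at 6.51 ± 1.44, col23a1b at 5.66 ± 1.02, COL4A1 at 5.56 ± 2.27, COL5A1 at 5.39 ± 0.932, col6a4a at 4.84 ± 1.52 and col1a1a at 3.93 ± 1.14 formed a run in which no neighbours differed beyond their spread. The lowest tested gene was COL12A1 on chromosome 20, at 0.0603 ± 0.0338, and below col1a1a came col16a1 at 2.24 ± 0.887 and COL6A3 at 2.22 ± 0.566, which were level with each other.

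**Figure D2:**
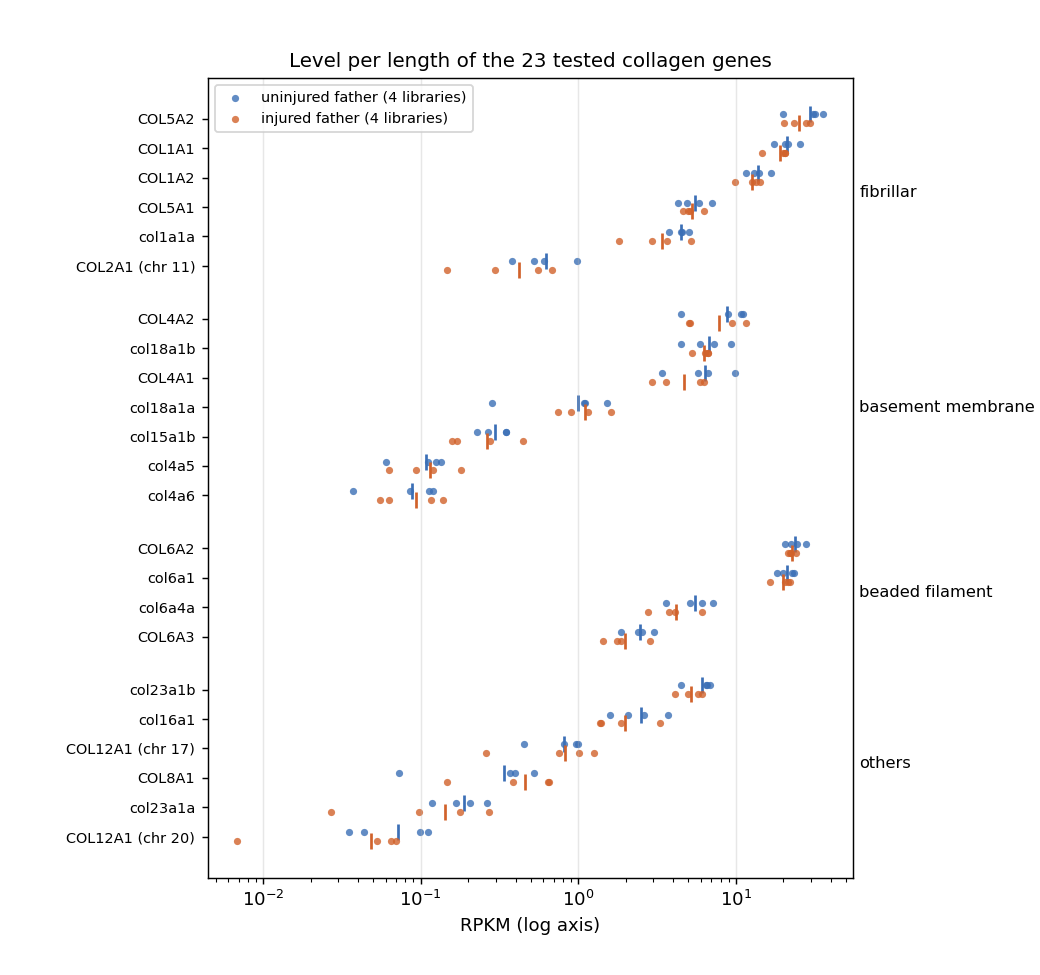
RPKM on a log axis (x axis) of the 23 tested collagen genes (y axis), grouped by class; points are the libraries and ticks the means of the 4 with uninjured and the 4 with injured fathers. The points of the groups overlap for every gene, and the COL5A2, COL6A2, col6a1 and COL1A1 means are the highest.

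Among the fibrillar chains, 6 of 15 were tested. COL5A2 (ENSDARG00000031678, GRCz11 chromosome 9, 42653188 to 42696408) encodes a chain of type 5 collagen, which in mammals nucleates type I fibrils and limits their diameter. Its RPKM was 30.9, 32.0, 36.0 and 20.1 in uninjured 1, 3, 4 and 5, and 29.5, 28.0, 23.5 and 20.3 in injured 1, 2, 4 and 7. The lowest value of each group was nearly equal, and the values of the injured-father group lay inside the range of the other. The means were 29.7 ± 6.82 and 25.3 ± 4.18, a log2 fold of -0.23 (SE 0.20, 95% interval -0.67 to 0.21, adjusted p = 0.81). Its partner chain COL5A1 (ENSDARG00000012593, chromosome 21, 6556635 to 6725780) was lower, at 5.51 ± 1.20 with uninjured and 5.27 ± 0.739 with injured fathers.

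Type 1 collagen, the main structural collagen of scar and of fibrous tissue, has in zebrafish an alpha 1 chain from each of a pair of duplicate genes, and an alpha 2 chain. The copy named COL1A1 here is on chromosome 12 (ENSDARG00000035809, 3095699 to 3133483), where the RefSeq table places col1a1b. COL1A1 was at 17.4, 21.6, 25.4 and 20.6 RPKM in uninjured 1, 3, 4 and 5, and at 19.9, 20.6, 20.7 and 14.7 RPKM in injured 1, 2, 4 and 7. The lowest value belonged to injured 7, and the other 3 of that group lay within the range of the uninjured-father libraries. The log2 fold was -0.17 (SE 0.18, 95% interval -0.55 to 0.22, adjusted p = 0.84). COL1A2 (ENSDARG00000020007, chromosome 19, 40983221 to 41002980), the alpha 2 chain, was at 11.6, 14.1, 16.6 and 13.1 RPKM against 13.5, 12.7, 14.2 and 9.95 RPKM. It had the same order of highest and lowest libraries, and its log2 fold was -0.14 (SE 0.18, 95% interval -0.52 to 0.25, adjusted p = 0.87).

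The duplicate col1a1a (ENSDARG00000012405, chromosome 3, 23221047 to 23239458) was lower than COL1A1 in every library, at 0.124 to 0.252 of its RPKM. It was at 3.77, 4.53, 5.08 and 4.49 RPKM in uninjured 1, 3, 4 and 5, and at 2.92, 5.18, 3.67 and 1.82 RPKM in injured 1, 2, 4 and 7. The injured-father group held both the highest and the lowest value, so the ranges were nested. Its log2 fold was -0.40 (SE 0.27, 95% interval -1.0 to 0.20, unadjusted p = 0.17, adjusted p = 0.76). A gene annotated on the opposite strand overlaps the span of col1a1a, and another that of COL1A2. Reads where exons of several genes overlap were left out by the counting. Whether exons overlap here, and what this took from either level, was not tested.

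The last tested fibrillar gene, COL2A1 on chromosome 11 (ENSDARG00000011407, 32007 to 55224), encodes the collagen of cartilage. Its counts were 37, 39, 70 and 25 with uninjured fathers and 39, 26, 10 and 26 with injured fathers. The groups overlapped, and uninjured 4 was high and injured 4 low. Its log2 fold was the most negative of the fibrillar class, at -0.60 (SE 0.45, 95% interval -1.58 to 0.39, adjusted p = 0.79). The cartilage matrix gene acana was at 2.87 CPM with uninjured and 1.13 CPM with injured fathers, with a log2 fold of -1.33 and an adjusted p of 0.43, while the other tested gene of the cartilage and bone markers, SOX9, was at 0.525 CPM and 0.775 CPM with a log2 fold of 0.50. Their part in the COL2A1 value was not tested. All 11 genes of the cartilage types 2, 9, 10 and 11 were in the table, and COL2A1 on chromosome 11 was the 1 that was tested. Of the other 10, none reached more than 12 counts in a library.

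Basement membrane chains were tested for 7 of 9 genes. In the median gene the highest library was 2.99 times the lowest, against 1.76 times in the fibrillar class and 6.89 times in the other types. That median gene was col4a5, with 5 to 13 counts a library, so its value also holds counting error. COL4A1 (ENSDARG00000055009, chromosome 9, 8634229 to 8670158) and COL4A2 (ENSDARG00000104110, chromosome 9, 8761099 to 8882901) encode the ubiquitous type 4 network. COL4A1 was at 5.76, 6.65, 9.88 and 3.40 RPKM in uninjured 1, 3, 4 and 5, and at 6.30, 5.94, 3.62 and 2.94 RPKM in injured 1, 2, 4 and 7. COL4A2 was at 8.88, 11.1, 10.8 and 4.48 RPKM against 11.7, 9.45, 5.15 and 5.03 RPKM. For both genes uninjured 5, injured 4 and injured 7 were the low libraries, and the highest library was 3.37 times the lowest for COL4A1 and 2.61 times for COL4A2. The log2 fold was -0.46 for COL4A1 (SE 0.33, 95% interval -1.18 to 0.27, unadjusted p = 0.19, adjusted p = 0.77). For COL4A2 it was -0.17 (SE 0.34, 95% interval -0.91 to 0.56, adjusted p = 0.92).

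Types 15 and 18 lie where basement membrane meets connective tissue, and the end fragment of type 18 is endostatin, an inhibitor of vessel growth. Of the type 18 duplicates, col18a1b (ENSDARG00000095901, chromosome 6, 20678890 to 20707846) was the more abundant, at 5.97, 9.30, 7.29 and 4.46 RPKM with uninjured fathers and 6.71, 6.40, 6.69 and 5.30 RPKM with injured fathers. The values of the injured-father group lay within the wider range of the other group, and the log2 fold was -0.11 (SE 0.23, 95% interval -0.60 to 0.38, adjusted p = 0.93). Its duplicate col18a1a (ENSDARG00000036558, chromosome 9, 41821613 to 41979505) was at 1.09, 1.11, 1.53 and 0.285 RPKM against 1.63, 1.15, 0.739 and 0.898 RPKM. The uninjured 5 value was far below the rest, and the log2 fold of 0.13 (SE 0.42, 95% interval -0.79 to 1.06, adjusted p = 0.96) was the most positive of the class. Both directions depended on which libraries were kept. Without uninjured 5, for example, col18a1a had a log2 fold of -0.17.

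The remaining basement membrane genes were near the lower end of detection. The type 4 chains col4a5 (ENSDARG00000052063), whose human counterpart is mutated in Alport kidney disease, and col4a6 (ENSDARG00000052061) had at most 14 counts in a library. Their mean RPKM was 0.111 and 0.0908. In both, injured 1 was the highest library and uninjured 5 the lowest. The type 15 gene col15a1b (ENSDARG00000061848) was at 0.228 to 0.350 RPKM with uninjured and 0.158 to 0.449 RPKM with injured fathers, again overlapping. COL4A4 and col4a3, the partners of col4a5 in the mammalian glomerulus, had 9 counts and 1 count over all 8 libraries.

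Of the 5 beaded filament genes 4 were tested, and the most even collagen genes between libraries were among them. COL6A2 (ENSDARG00000061436, chromosome 11, 33921358 to 33960318) and col6a1 (ENSDARG00000074908, chromosome 11, 33996526 to 34065718) encode the short chains of type 6. COL6A2 was at 20.4, 27.7, 24.6 and 22.5 RPKM in uninjured 1, 3, 4 and 5, and at 22.5, 21.3, 22.2 and 24.2 RPKM in injured 1, 2, 4 and 7. The injured-father libraries sat inside the range of the others, and the highest library was 1.36 times the lowest. Its log2 fold was -0.08 (SE 0.15, 95% interval -0.41 to 0.25, adjusted p = 0.92), the narrowest interval of any member. For col6a1, with 20.1, 23.5, 22.7 and 18.2 RPKM against 21.3, 22, 20.6 and 16.4 RPKM, the log2 fold was -0.07 (SE 0.16, 95% interval -0.43 to 0.28, adjusted p = 0.93). With scaling by library size alone both folds were just above 0, at 0.0031 and 0.0033.

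The long type 6 chains were lower per length. The gene col6a4a (ENSDARG00000079752, chromosome 16, 36650984 to 36719705) was at 5.15, 6.07, 7.16 and 3.62 RPKM with uninjured and 6.14, 4.1, 2.77 and 3.75 RPKM with injured fathers. The groups overlapped, with uninjured 4 highest and injured 4 lowest. It had the smallest p of the collagen genes, an unadjusted p of 0.16 with an adjusted p of 0.76, at a log2 fold of -0.39 (SE 0.27, 95% interval -0.97 to 0.19). COL6A3 (ENSDARG00000077139) had the same highest and lowest libraries, means of 2.45 ± 0.474 and 1.99 ± 0.616 RPKM, and a log2 fold of -0.30 (SE 0.23, 95% interval -0.81 to 0.20, adjusted p = 0.79). The fifth type 6 gene, col6a4b, had 8 counts in all and was not tested.

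Of the 28 genes of other types, 6 were tested, and they include chains that decorate fibrils, cross the cell membrane or form meshes. The most abundant was col23a1b (ENSDARG00000089078, chromosome 21, 32089491 to 32119965), a membrane-spanning collagen. It was at 6.54, 6.44, 6.88 and 4.49 RPKM in uninjured 1, 3, 4 and 5, and at 5.73, 6.07, 4.14 and 4.96 RPKM in injured 1, 2, 4 and 7. The groups overlapped, with a log2 fold of -0.22 (SE 0.20, 95% interval -0.65 to 0.20, adjusted p = 0.82). Its duplicate col23a1a (ENSDARG00000095339) was at 0.118 to 0.263 RPKM and 0.0271 to 0.271 RPKM. For col16a1 (ENSDARG00000009194, chromosome 19, 38473758 to 38611814), a collagen associated with the surface of fibrils, RPKM was 2.07, 2.60, 3.72 and 1.60 against 3.31, 1.87, 1.37 and 1.40. Here uninjured 4 and injured 1 were highest and injured 4 and injured 7 lowest, with an adjusted p of 0.83 (95% interval of the log2 fold -1.06 to 0.39).

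Type 12 collagen sits on the surface of fibrils and is a component of the regenerating fish heart's matrix. The copy on chromosome 17 (COL12A1, ENSDARG00000078322, 49785495 to 49978986) was at 0.818, 0.993, 0.962 and 0.456 RPKM with uninjured and 0.756, 1.26, 1.00 and 0.259 RPKM with injured fathers. Its log2 fold was 0.01 (SE 0.41, 95% interval -0.90 to 0.92, adjusted p = 0.996), with a sign that turned under several other settings. The copy on chromosome 20 (COL12A1, ENSDARG00000019601, 49451764 to 49681850) had between 1 and 17 counts a library and the most negative fold of the 23, at -0.61 (SE 0.59, 95% interval -1.90 to 0.68, adjusted p = 0.83). COL8A1 (ENSDARG00000003533, chromosome 22, 28647130 to 28668442), a short-chain collagen of vessel walls, had 4, 26, 22 and 19 counts with uninjured and 29, 14, 34 and 10 counts with injured fathers. Its values were spread over both groups alike, with uninjured 1 lowest, and its log2 fold of 0.41 (SE 0.56, 95% interval -0.82 to 1.64, adjusted p = 0.88) was the most positive of the 23. Without uninjured 1, the library with 4 counts, the fold was 0.074.

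The other 34 collagen genes had too few counts to test. Among these, 27 had at least 1 count and the highest count in any library was 14, for col21a1 in uninjured 4. No count was found in any library for col5a3b, col8a1a, col9a1b, COL10A1 on chromosome 17, the col19a1 gene ENSDARG00000096073, col28a1a and col28a2b. A count of 0 over the 8 libraries allows up to 3 counts, or 0.0288 CPM. The largest totals among the untested were 42 for COL8A2, 39 for col11a1b, 37 for col21a1 and 34 for COL11A2. Types 7 and 17, which anchor the skin's epidermis, gave 5 untested genes with at most 8 counts a library, and the 4 genes of type 28 at most 2. The low level of these types is a description at this depth and not a proof of absence.

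Read as a class, the collagen genes gave 0 of 23 with an adjusted p under 0.05 in edgeR's quasi-likelihood test, against 0% of all 13604 tested genes. DESeq2, which called 55 genes in all, and limma voom also called 0 collagen genes. At an unadjusted p under 0.05 edgeR again gave 0 of 23, where 7.14% of all tested genes lay under it. DESeq2 gave 0 of 50 and voom 0 of 23, where 5.18% and 6.83% of all genes with a p lay under it. The values of the groups failed to overlap in 0 of 23, where 4.18% of all tested genes had groups that did not overlap. Adjusted p-values of the collagen genes ran from 0.76 to 0.996. These counts are no larger than the background, and a p above the threshold does not show equal levels. In 13 of 23 genes the 95% interval lay within 1 log2 unit of 0, that is within a doubling or halving, and in 3 of 23 within 0.5 log2 units. Of the 14 genes with a mean RPKM of at least 2, 12 had such an interval within 1 log2 unit; of the 9 below that level, 1 had.

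The log2 fold was below 0 in 18 of 23 collagen genes, or 78.3%, while 51.4% of all tested genes had a fold below 0. The median was -0.17, against -0.01 over all tested genes. By class the median was -0.20 in the fibrillar chains (6 of 6 below 0), -0.11 in the basement membrane chains (4 of 7), -0.19 in the beaded filament chains (4 of 4) and -0.28 in the other types (4 of 6). The genes are not independent here, because they moved together between libraries. Over the 253 pairs of tested collagen genes the median Pearson correlation across the 8 libraries was 0.58, and 235 pairs were positive. The matching value over all tested genes is not given here, so moving together is not shown to be particular to collagen genes. With scaling by library size alone the number below 0 was 15 of 23, with a median of -0.09 against 0.07 over all tested genes. Without uninjured 5 the number was 22 of 23, with a median of -0.31 against 0.01. Red blood cell markers stood beside this: all 5 tested had a higher mean with injured fathers, with a median log2 fold of 0.85, and summed to 398 to 713 CPM with uninjured and 558 to 1812 CPM with injured fathers, highest in injured 4. With haemoglobin, mitochondrial and ribosomal protein genes taken out of the library totals together, 19 of 23 collagen genes had a fold below 0. The median was -0.19 there, against -0.03 over all tested genes. Haemoglobin genes took 0.360% of counts in injured 4, where they were highest. That run therefore cannot show the part of red blood cells in the collagen values, which was not tested.

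**Figure D3:**
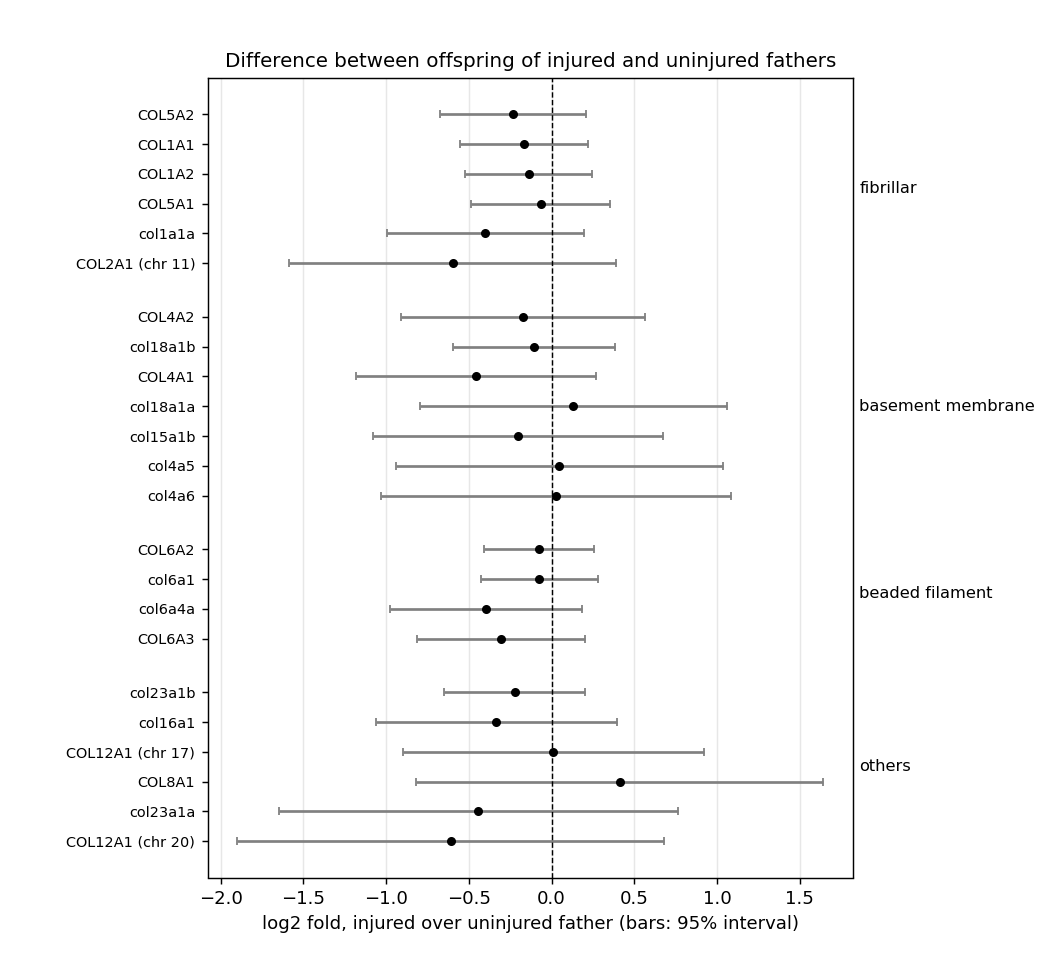
Log2 fold of injured over uninjured father (x axis, 0 dashed) with its 95% interval for the 23 tested collagen genes (y axis), grouped by class. Points of 18 genes lie left of 0, and every interval includes 0.

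The larger variation was between libraries inside each group. For each gene the deviation of log2 CPM from its mean over the 8 libraries was taken, and the median over the 23 genes was 0.14, 0.24, 0.35 and -0.31 in uninjured 1, 3, 4 and 5. It was 0.28, 0.09, -0.26 and -0.39 in injured 1, 2, 4 and 7. By this median uninjured 5 stood with injured 4 and injured 7 below 0, and the other 5 libraries above it. The type 1 genes did not share this order. COL1A1, COL1A2 and col1a1a deviated by 0.05, -0.001 and 0.25 in uninjured 5 and by 0.05, 0.11 and -0.03 in injured 4. In injured 7 they were low, at -0.44, -0.39 and -1.01. The lowest value of 21 of the 23 genes fell in uninjured 5, injured 4 or injured 7, with 7 each. The highest value of 18 genes fell in uninjured 4 or injured 1. The shares of all tested genes with these extremes are not given here.

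The class with the deepest median differed between these libraries. It was the basement membrane class in uninjured 5, at -0.59, and the other types in injured 7, at -0.69. In injured 4 the other types were at -0.42, close to basement membrane chains at -0.35 and beaded filament chains at -0.31. The 6 tested genes of other types ranged there from -0.95 for COL12A1 on chromosome 20 to 0.69 for COL8A1. Those 2 genes had 1 to 17 and 4 to 34 counts a library. The basement membrane share of all counts was 0.00584% in uninjured 5, 0.00715% in injured 4 and 0.00733% in injured 7, and from 0.0114% to 0.0145% in the other 5 libraries. Endothelial marker RNA, from cells that make type 4 collagen, summed to 727 CPM in uninjured 5, 710 CPM in injured 4 and 759 CPM in injured 7, within the 706 to 867 CPM of all 8. That sum was lowest in injured 1, at 706 CPM, and the gene cdh5 was its largest part in each library. The receptors kdrl and tek, named from the 8 tested markers after their values were seen, were lowest in injured 4 and uninjured 5. There kdrl was at 116 and 154 CPM against 158 to 320 CPM elsewhere, and tek at 9.25 and 14.8 CPM against 21.9 to 75.1 CPM. For neither receptor was injured 7 among these low libraries, and the order of the libraries in the other markers is not given here. The sum over all the endothelial markers did not share that order of kdrl and tek. Marker RNA of mural cells and smooth muscle was lowest in injured 4, at 137 CPM, and highest in uninjured 4, at 274 CPM. Uninjured 5 was at 185 CPM and injured 7 at 197 CPM, both above uninjured 3 at 155 CPM, a library with a high collagen share. Fibroblast and epicardial marker RNA was at 337, 321 and 307 CPM in uninjured 5, injured 4 and injured 7, against 269 to 336 CPM in the others. Skeletal muscle marker RNA, from 3 matched genes, was highest in uninjured 4 and injured 1, at 857 and 753 CPM. It was at 349, 273 and 504 CPM in uninjured 5, injured 4 and injured 7. In uninjured 1, uninjured 3 and injured 2 it was at 589, 529 and 368 CPM. In pooled tissue, fewer cells of a type and less RNA per cell cannot be told apart. Ribosomal protein genes took 4.95%, 5.66% and 5.52% of counts in uninjured 5, injured 4 and injured 7, and 3.79% to 4.93% in the others. Mitochondrial genes took 22.7%, 24.9% and 21.4%, against 19.7% to 21.7%. The part of these marker levels and shares in the collagen values was not tested.

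**Figure D4:**
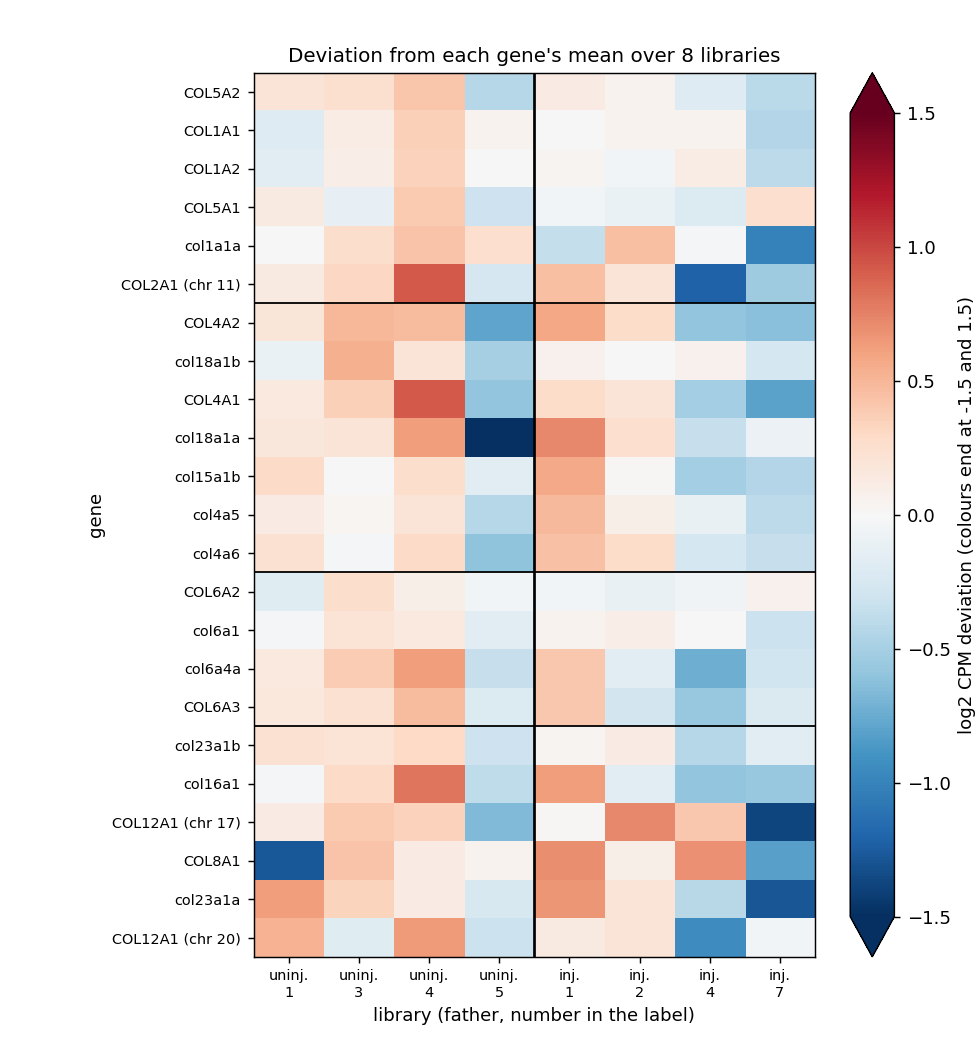
Log2 CPM deviation from each gene's own mean (colour) for the 23 tested collagen genes (y axis) in the 8 libraries (x axis), with lines between the classes and between the groups of fathers. Columns uninjured 5, injured 4 and injured 7 are mostly blue (low), with medians of -0.31, -0.26 and -0.39, and uninjured 4 and injured 1 are mostly red, with medians of 0.35 and 0.28.

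Some related chains kept a steadier proportion than their levels. The RPKM ratio of COL1A2 to COL1A1 was 0.652 ± 0.0140 (SD, n = 4) with uninjured and 0.665 ± 0.0319 (SD, n = 4) with injured fathers, and it stayed between 0.617 and 0.686 while COL1A1 itself varied 1.73 times. The ratio of COL6A3 to col6a4a stayed between 0.417 and 0.523. Less steady was the ratio of COL6A2 to col6a1, from 0.969 to 1.48, a wider span than that of either level. The ratio of COL4A2 to COL4A1 lay between 1.1 and 1.85 and that of col4a6 to col4a5 between 0.611 and 0.981. The duplicates col1a1a and COL1A1, and COL5A1 and COL5A2, had wider ranges, from 0.124 to 0.252 and from 0.153 to 0.311. Injured 7 held the highest ratio of COL6A2 to col6a1 and of COL5A1 to COL5A2. The next highest were 1.23 and 0.213, both in uninjured 5. All ranges are over both groups, and no ratio separated them in the plot of chain ratios.

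**Figure D5:**
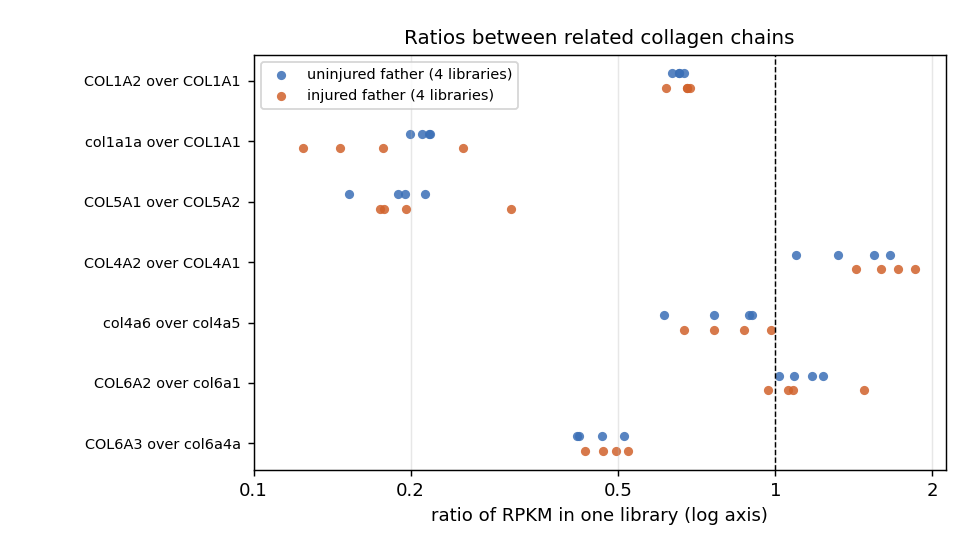
Ratio of RPKM within a library (x axis, log) for 7 pairs of related collagen chains (y axis); points are libraries with uninjured or injured fathers. Points of COL1A2 over COL1A1 lie closest together, between 0.617 and 0.686, and those of the groups overlap in every pair.

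For these 7 pairs, chosen with the values known, correlations of log2(CPM + 0.5) over the 8 libraries were tested by exact permutation, with adjustment over the 7. The test is against no relation at all, while the median r of all 253 collagen pairs was 0.58, so no p here shows a pair to be closer than other collagen genes. COL1A2 and COL1A1 had a Pearson r of 0.974 (exact permutation p = 8.4e-04, adjusted 0.0020) and a Spearman rho of 0.905 (exact permutation p = 0.0046, adjusted 0.011). Without the 2 libraries farthest from the median r was 0.848, and within the groups it was 0.991 and 0.954. COL6A3 and col6a4a had an r of 0.978 (exact permutation p = 2.5e-04, adjusted 8.7e-04), a rho of 0.905 (p = 0.0046, adjusted 0.011, exact permutation), and an r of 0.948 without the 2 farthest. These pairs held within each group as well, with 0.989 and 0.973 for the latter.

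The type 4 pairs were also correlated. COL4A2 and COL4A1 had an r of 0.915 (exact permutation p = 0.0044, adjusted 0.0077), a rho of 0.881 (exact permutation p = 0.0072, adjusted 0.013), 0.836 without the 2 farthest libraries, and 0.909 and 0.970 within the groups. The thinly counted pair col4a6 and col4a5 had an r of 0.946 (exact permutation p = 7.4e-05, adjusted 5.2e-04), a rho of 0.976 (exact permutation p = 4.0e-04, adjusted 0.0028), 0.872 without the 2 farthest, and 0.994 and 0.931 within the groups. The relation of col1a1a to COL1A1 (r = 0.83, exact permutation p = 0.013, adjusted 0.018; rho = 0.619, p = 0.11, adjusted 0.16) rested on the 2 farthest libraries by the pooled value, with an r of 0.359 without them, while within the groups r was 0.988 and 0.876. For COL5A1 with COL5A2 r was 0.429 (exact permutation p = 0.29, adjusted 0.34), and for COL6A2 with col6a1 0.249 (exact permutation p = 0.55). Without the 2 farthest libraries, uninjured 5 and injured 7 for both pairs, r was 0.802 and 0.864. In uninjured 5 both chains of each pair lay below their means over the 8 libraries. In injured 7 they parted. COL5A1 deviated there by 0.25 and COL5A2 by -0.41, and COL6A2 by 0.07 and col6a1 by -0.32. In both of the last pairs r was positive among uninjured-father libraries, at 0.832 and 0.769. It was negative among injured-father libraries, at -0.576 and -0.944. Each group had 4 libraries, the second included injured 7, and the difference was not tested. All pairs share the libraries' depth and amplification.

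Some of these paired chains are also neighbours on their chromosome. The start sides of col4a6 and col4a5 face each other on opposite strands of chromosome 7 with 752 bases and no annotated gene between them, at 50920437 to 51102479 and 51103232 to 51194430. COL4A1 and COL4A2 are likewise divergent on chromosome 9, with 90940 bases and 1 annotated gene between. COL6A2 and col6a1 lie on the same strand of chromosome 11, 36207 bases apart with 1 gene between. COL1A1 and COL1A2, which were also correlated, are on different chromosomes. The neighbours COL6A2 and col6a1 had an r of 0.249, or 0.864 without the 2 farthest libraries. The part of position in these correlations was not tested.

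The enzymes, receptors and partners of collagen were read from 4 lists of 113 different symbols, of which 96 matched a gene and 71 were tested. None passed the adjusted threshold, and 7 of 71 (9.86%) had an unadjusted p under 0.05, 5 lower and 2 higher with injured fathers, against 7.14% of all tested genes. In the list of intracellular synthesis (prolyl and lysyl hydroxylases, chaperones and export factors) 0 of 26 had such a p, and the median log2 fold was -0.04. Among 11 tested genes of procollagen cleavage and crosslinking the median was -0.29 and 3 had such a p, all with lower means in offspring of injured fathers. Among 16 receptors and turnover genes the median was -0.03 with 2 higher and 1 lower, and among 19 other matrix partners -0.19 with 1 lower. The gene sparc stands in the first and the last of these lists.

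Among the cleavage and crosslinking genes, BMP1 on chromosome 8, the protease that trims procollagen, was at 8.89 ± 3.73 CPM against 4.26 ± 0.976 CPM (log2 fold -1.07, SE 0.31, unadjusted p = 0.0052, adjusted p = 0.54). PCOLCE2 on chromosome 24, which enhances that protease, was at 14.9 ± 7.67 CPM against 7.08 ± 3.33 CPM (log2 fold -1.07, adjusted p = 0.66). The crosslinking oxidase loxl2a was at 15.9 ± 13.3 CPM against 6.54 ± 2.08 CPM (log2 fold -1.28, adjusted p = 0.67). It was at 5.04, 17.4, 34.1 and 6.87 CPM in uninjured 1, 3, 4 and 5. Of the 11 tested genes of this list, 7 had a fold below 0 and 4 above. Among the latter, LOXL2 on chromosome 5 was at 15.8 ± 2.19 CPM against 16.1 ± 2.36 CPM (log2 fold 0.03). Likewise pcolcea was at 71.1 ± 14.5 CPM against 74.1 ± 23.2 CPM (log2 fold 0.06). Of the receptors, the collagen-binding kinase DDR1 on chromosome 16 had 35.8 ± 3.81 CPM against 25.5 ± 7.03 CPM (log2 fold -0.49, adjusted p = 0.67). Of the turnover genes with an unadjusted p under 0.05, the higher means with injured fathers were those of the matrix protease MMP9, with 2.77 ± 2.09 CPM against 0.998 ± 0.155 CPM (log2 fold 1.45, adjusted p = 0.61) and of the collagenolytic cathepsin CTSK, with 51.2 ± 9.24 CPM against 35.7 ± 5.69 CPM (log2 fold 0.52, adjusted p = 0.60). The most abundant protease of the list, MMP2, was at 144 CPM with uninjured and 138 CPM with injured fathers, with a log2 fold of -0.06. The fibronectin gene FN1 on chromosome 1 was at 423 ± 42.9 CPM against 312 ± 83.9 CPM (log2 fold -0.44, unadjusted p = 0.0498, adjusted p = 0.70). None of the 7 genes with an unadjusted p under 0.05 passed the adjusted threshold. The 2 matched macrophage markers, from cells that express such proteases, summed to 10.5 to 14.6 CPM with uninjured and 15.3 to 21.8 CPM with injured fathers, but they had opposite directions: marco was at 7.03 CPM against 12.2 CPM (log2 fold 0.80) and csf1ra at 6.06 CPM against 5.43 CPM (log2 fold -0.16). Their part in the MMP9 and CTSK values was not tested.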

How the data were processed

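The authors deposited raw counts per gene, made with featureCounts 2.0.3, per the file headers, on the Ensembl GRCz11 annotation, release 111, with strand option 0 and no multi-mapping reads. Per the submitters' processing notes, reads were aligned with STAR 2.7.10a and checked with FastQC 0.11.9 and MultiQC 1.12, and R 4.4.0 and DESeq2 1.44.0 were used. Per the labels' protocols, 1 ng of RNA was amplified in 2 rounds (Ovation Single Cell RNA-Seq System) and read as 60-base single reads, without molecular identifiers, so intervals of shares cover counting error only. Because strand was not used, reads of either strand within a gene's exons count toward it. Reads where annotated exons of several genes overlap were left out. Taken from start to end, 8 of the 23 tested collagen genes overlap another annotated gene, 5 of them on the opposite strand. Overlap of their exons was not examined. Duplicated collagen genes can share reads that were left out as multi-mapping, so levels of duplicates are uncertain.

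A name table gave a symbol to 29201 genes (89.8%). Names in capitals follow the human gene (22 of the 57 collagen genes) and are given with the chromosome where shared; RefSeq's GRCz12tu table was used for names only. Coordinates are those of the counts table. The comparison used edgeR 4.0.16 (R 4.3.3) on all genes: TMM, filterByExpr with a minimum count of 10, the robust quasi-likelihood test and Benjamini-Hochberg adjustment over 13604 genes at 0.05. The SE of a log2 fold is its size divided by the root of the F statistic. The code was tested on simulated data. Alternatives were other scalings and filters, DESeq2 1.42.0, limma voom 3.58.1, each library left out in turn, a replicate block and library totals that leave out haemoglobin, mitochondrial and ribosomal protein genes. The collagen genes named were the 3 highest per class by RPKM, any with an unadjusted p under 0.05, and the largest positive and negative fold per class; others are named to account for the class and were chosen with their values seen. Pathway genes named were up to 4 per list with an unadjusted p under 0.05. Others, such as LOXL2 on chromosome 5 and pcolcea, were named with their values seen. The members and lists were chosen with earlier results of these data known.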

Additional observations from a re-analysis of the deposited data

Results flagged for a closer look

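COL1A1 (chromosome 12) in injured 7 was at 14.7 RPKM, while the other 3 libraries with injured fathers were at 19.9 to 20.7 RPKM. It stood out because its gap to the nearest library took most of the group's range (0.875 of it). This was 1 of 42 groups examined, and chance alone marks about 1 group in 20. COL1A2 was also lowest in this library, and the cause was not tested.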

How the results depend on the processing

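Over 17 alternatives, 249 of 271 values of the named collagen genes kept their direction and 22 turned. The median log2 fold of the collagen genes stayed below 0 (-0.06 to -0.33), and so did the log2 ratio of mean shares (-0.09), computed under 10 alternatives. With 1 library left out that ratio ranged from -0.016 without injured 4 to -0.20 without uninjured 5. With 1 library left out, 637 to 1328 genes in all had an unadjusted p under 0.05 (971 with all, and 637 without injured 4). Of the 23 collagen genes 0 to 3 had one. These were COL4A1 without uninjured 5, COL6A3, col6a4a and col16a1 without injured 1, and col1a1a without injured 2. The shares of all tested genes in these 3 fits were 9.14%, 7.35% and 5.64%. Without a filter 1 of 50 collagen genes had such a p (col14a1b, whose 8 counts all lie in 1 group), as did 1381 of 23104 genes (5.98%). None of these passed adjustment.

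Folds that turned lay between -0.11 and 0.13 in the main fit, but some moved widely between settings. With 1 library left out, col18a1b ranged from -0.26 to 0.092, col18a1a from -0.17 to 0.41, COL6A2 from -0.14 to 0.012, col6a1 from -0.14 to 0.011 and COL12A1 (chromosome 17) from -0.27 to 0.32. With library size alone COL6A2 was at 0.0031 and col6a1 at 0.0033. COL12A1 (chromosome 17) was at -0.0061 with RLE factors, -0.036 without a filter, -0.0027 in DESeq2, -0.20 in voom and -0.012 with totals that left out haemoglobin, mitochondrial and ribosomal protein genes. The cause was not tested.

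Numbers 1 and 4 occur in both groups, but same-numbered libraries deviated with correlations of 0.12 and -0.28, and the labels state no pairing, so a pairing is not established. With a replicate block over these 4 libraries, 1 of 23 collagen genes had an unadjusted p under 0.05 (COL8A1, log2 fold 1.72, adjusted p = 0.66). In all 878 genes (6.31%) had one and 19 passed adjustment. In that fit col18a1b was at 0.028, col18a1a at -0.22, COL6A2 at 0.0029 and COL12A1 (chromosome 17) at -0.018. The same 4 libraries without the block, an alternative chosen after seeing the data, gave 976 and 0 genes, 0 collagen genes, a fold of 1.47 for COL8A1, and 0.024, -0.14 and -0.0075 for col18a1b, col18a1a and COL12A1 (chromosome 17). Of the 9 genes under 2 RPKM, 1 had an interval within 1 log2 unit; SEs of 0.41, 0.42 and 0.40 went with 868, 705 and 136 counts (COL12A1 on chromosome 17, col18a1a and col15a1b), and the part of depth was not tested.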

Other observations

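The untested gene col14a1b, whose human counterpart encodes a fibril-associated collagen, had 1, 2, 2 and 3 counts in the 4 libraries with uninjured fathers and 0 counts in each library with an injured father. It was singled out after its values were seen, and without a filter its adjusted p was 0.73 in edgeR's quasi-likelihood test. Groups failed to overlap in 4.18% of the tested genes, a share that does not cover genes with so few counts.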
